A study of Mus musculus with 9 samples.

Results

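Genes of the epithelial-mesenchymal transition (EMT) and of the extracellular matrix were followed in epithelial cells sorted from the small intestine of NFKO mice. The set held 47 genes picked by symbol out of 35013 gene symbols in each of 2 tables of normalized counts. All 47 were found in both tables, with Ctgf and Cyr61 entered under their newer symbols Ccn2 and Ccn1. They were sorted by role into cadherins and vimentin, EMT transcription factors, the TGF-β ligand, receptor and targets, interstitial matrix, basement membrane, integrins, proteases and their inhibitors, contractile proteins, and a galectin with 2 Gadd45 genes.

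All 9 libraries came from mice of 1 genotype, Neurog3Cre-FoxO1 f/f; Rosa26tdtomato, aged 4 to 6 weeks, with any attached pancreas dissected away and the cells stained for CD24 and EpCAM before the sort. Cre is driven by Neurog3, the transcription factor of endocrine progenitors, so Tomato marks the cells that descend from those progenitors. The same Cre targets the floxed FoxO1 alleles, and the paper reports reduced FoxO1 expression in sorted Tomato+ cells. CD24negTomato+ and CD24+Tomato+ cells are descendants of these progenitors without and with the surface antigen CD24. Tomatoneg cells are epithelial cells without the label from the same strain, which also carry the floxed FoxO1 alleles. There were 3 biological replicates of each population. Tomato+ cells with intact FoxO1 were not among the libraries, so descent from Neurog3 progenitors and loss of FoxO1 cannot be told apart in either comparison.

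In EMT, epithelial cells give up junctions held by E-cadherin (Cdh1), turn on vimentin and N-cadherin, and secrete and remodel matrix, a program classically driven by TGF-β through the Snail, Zeb and Twist repressors. Many of its genes are also the ordinary products of fibroblasts, smooth muscle and endothelium, which lie just beneath the gut epithelium. Epithelial cells themselves make laminins and integrins to hold on to the basement membrane, and vimentin and tropomyosins occur in some epithelial and migratory cell types outside any such transition.

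The libraries held an estimated 29953097 to 37138914 reads for CD24negTomato+, 27723742 to 39240059 for CD24+Tomato+ and 19158348 to 24373149 for Tomatoneg cells. A normalized count equal to 3 estimated reads, used here as the limit of detection and covering counting error only, was 2.22 to 2.83, 2.10 to 2.92 and 3.23 to 4.29 in these populations. Tomatoneg replicate 1 stood apart, with 13025 genes above 0 against up to 16008 in the other Tomatoneg libraries. For Thbs1, Col1a1, Fstl1, Plaur and Lgals1 a result without it is given too. These genes were picked because, in at least 1 table, they passed without this library and not with it. Leaving it out also raised the calls over all genes in both tables, with counts given among the alternatives below. Foxo1, the gene targeted by Cre, read 467, 274 and 371 in CD24negTomato+ replicates 1 to 3 against 696, 518 and 424 in Tomatoneg, and 319, 193 and 201 in CD24+Tomato+ against 748, 529 and 444. Its log2 fold changes of -0.56 and -1.27 did not pass the test (limma adjusted P = 0.427 and 0.0579), and the second passed with the replicate number as a block (adjusted P = 0.022). Cd24a was higher in CD24+Tomato+ than in Tomatoneg cells on the log2 scale by 2.78 (adjusted P = 0.003).

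Tested members moved in both directions, with 18 higher and 10 lower in CD24negTomato+ cells and 16 higher and 13 lower in CD24+Tomato+ cells. A shift of the set as a whole was not tested. Vim and Tpm4 were higher than in Tomatoneg cells in every library of both populations, Fstl1 likewise, and the rises passed the test in CD24+Tomato+ cells, where the laminin chains Lamb1 and Lamc1 also rose and Itgb5 and Tgfbi fell. The cadherin Cdh1 stayed at a normalized count of 17650 or more in every library. The Snail and Twist genes, Cdh2 and most fibroblast and smooth muscle products lay at or near the limit of detection. Zeb1 lay above it in replicates 1 and 2 of both Tomato+ populations (9.10 to 47.3) but not in replicate 3. Zeb2 reached 17.8 in CD24negTomato+ replicate 2 and was low elsewhere. In bulk RNA, a change in the number of cells of one type and a change in RNA per cell cannot be told apart, here and in each result that follows.

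**Figure D1:**
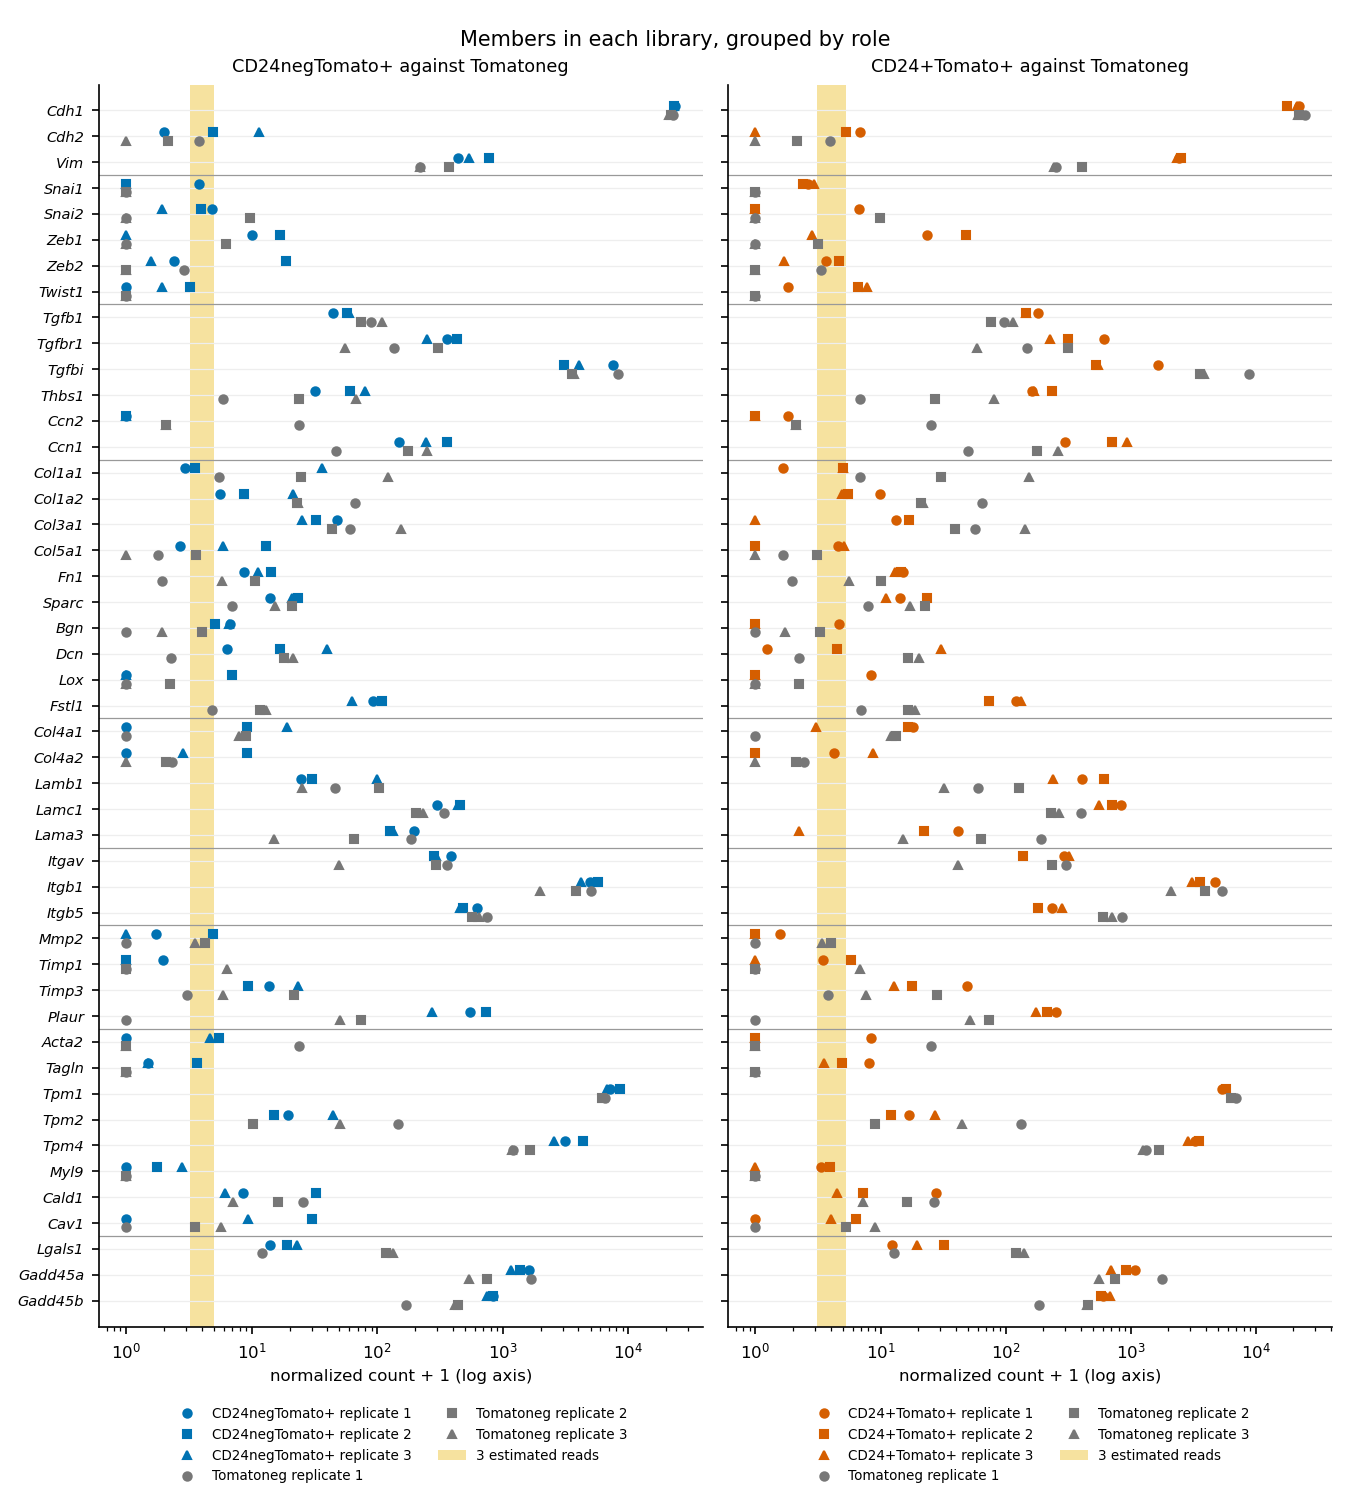
Normalized count + 1 (log axis) of each of the 47 members in each library, in the table with CD24negTomato+ cells (left) and the one with CD24+Tomato+ cells (right), with lines between the role groups. The yellow band spans the values of 3 estimated reads, and Snai1 lies at or below it in every library whereas Cdh1 lies at 17650 to 24590.

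Of the 47 members, 23 in the CD24negTomato+ table and 22 in the CD24+Tomato+ table exceeded the limit of detection in all 6 libraries. Another 22 and 23 did so in 1 to 5 libraries, and 2 in each table did so in none. A mean normalized count of at least 10 over the 6 libraries was needed for testing, and 28 and 29 members met it, with 28 in common and Zeb1 tested in the CD24+Tomato+ table alone. The 19 and 18 members left untested are described by their values. A member that reached this mean only through the population where it is high had to differ between the groups, so counts over the tested members are descriptive. Such members include Zeb1, Col1a1, Col1a2 and Col3a1 in the CD24+Tomato+ table and Fstl1 in the CD24negTomato+ table.

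In CD24negTomato+ cells, 0 of 28 tested members passed in either direction (limma on log2(normalized count + 1), Benjamini-Hochberg adjusted over all genes tested), beside 0.999% of 13420 genes called higher and 0.32% called lower. At an unadjusted P under 0.05 there were 5 higher and 0 lower of the 28, beside 1377 higher and 915 lower of the 13420 genes. With the replicate number as a block, Vim and Tpm4 passed as higher, 7.14% of the tested members beside 4.34% of all genes, and 0 passed as lower beside 2.96%. The groups did not overlap for 7 members that were higher, 25.0% of those tested beside 14.7% of all genes, and for 2 that were lower, 7.14% beside 10.6%. The median log2 fold change was 0.59 over the tested members and 0.08 over all tested genes.

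In CD24+Tomato+ cells, 5 of 29 tested members passed as higher (17.2%, beside 8.02% of 13874 genes) and 2 as lower (6.9%, beside 4.89%). The block raised the first to 7 by adding Ccn1 and Thbs1 (24.1%, beside 10.8%) and left the second at 2 (6.9%, beside 9.95%). The groups did not overlap for 10 higher members (34.5%, beside 21.6%) and 6 lower ones (20.7%, beside 14.4%). The median log2 fold change was 0.09 over the tested members and 0.16 over all tested genes. Both comparisons use the same 3 Tomatoneg libraries, so their values are set side by side and not counted as separate evidence. Each table was scaled separately and gene by gene. Tomatoneg values thus shift between tables, and among the members past the threshold the shift of Fstl1 was the largest, at 1.44 times the median shift of its library, so differences were taken only within a table.

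**Figure D2:**
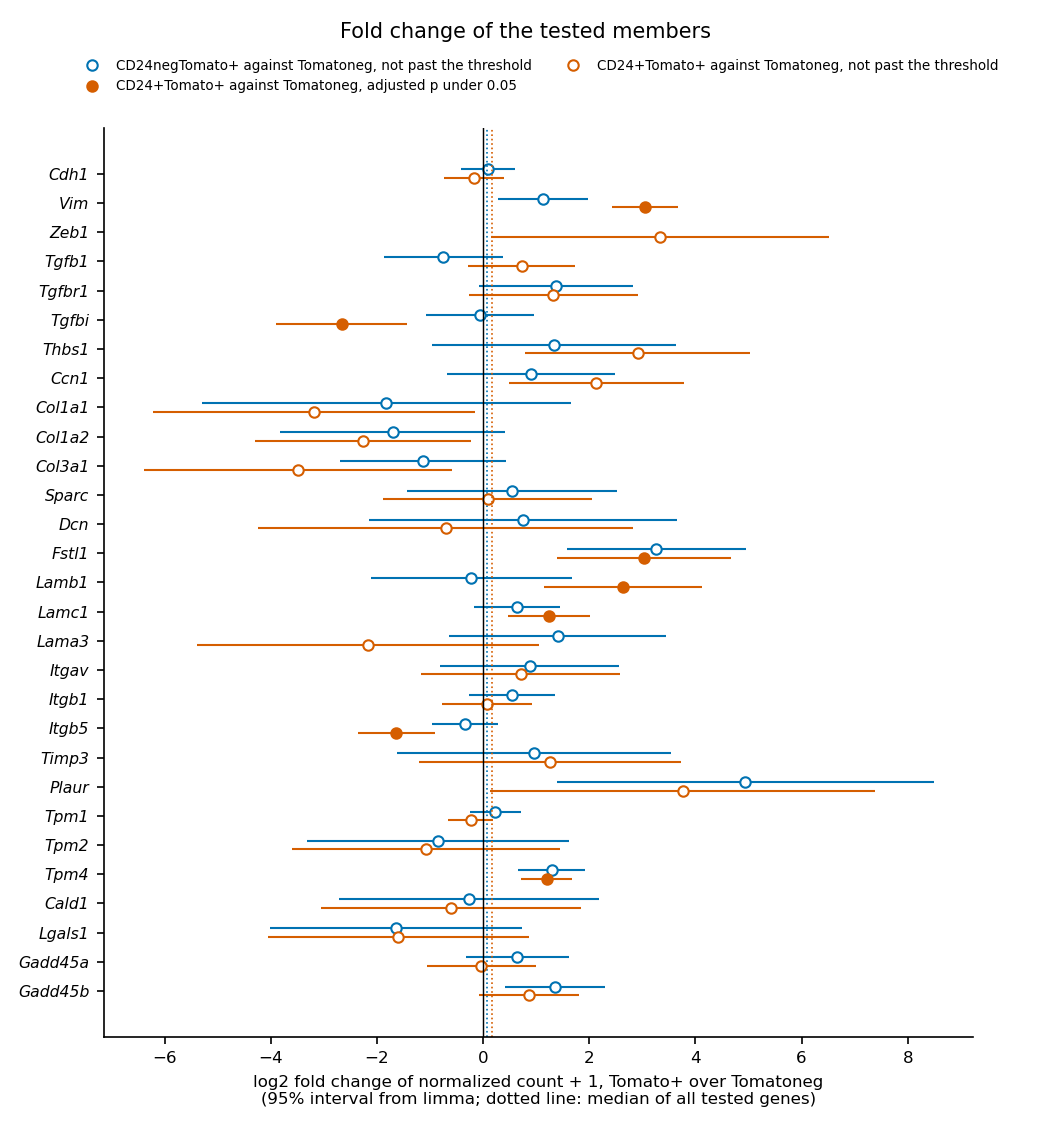
Log2 fold change of normalized count + 1, Tomato+ over Tomatoneg, of each tested member with its 95% interval from limma, in CD24negTomato+ (blue) and CD24+Tomato+ cells (orange). Filled points passed the threshold (Vim, Fstl1, Lamb1, Lamc1 and Tpm4 to the right, Itgb5 and Tgfbi to the left), open points did not, and dotted lines mark the medians of all tested genes, 0.08 and 0.16.

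Cdh1, which encodes E-cadherin, the adhesion molecule of epithelial junctions, was abundant in all populations. It read 23670, 23130 and 23150 in CD24negTomato+ replicates 1, 2 and 3 and 22870, 21750 and 20900 in Tomatoneg. In the other table it read 22090, 17650 and 21300 in CD24+Tomato+ and 24590, 22220 and 21890 in Tomatoneg. Every CD24negTomato+ library lay slightly above every Tomatoneg library, and the CD24+Tomato+ libraries overlapped with Tomatoneg. The log2 fold changes were 0.10 ± 0.22 (SE, adjusted P = 0.853) and -0.17 ± 0.24 (adjusted P = 0.686), with 95% intervals of -0.41 to 0.60 and -0.74 to 0.39, and the first turned to -0.10 when library totals were made equal. Cdh2, the mesenchymal N-cadherin, read 0.993, 3.90 and 10.5 in CD24negTomato+ and 5.91, 4.34 and 0 in CD24+Tomato+ cells, with at most 2.97 in Tomatoneg. Of each Tomato+ population 2 libraries exceeded 3 reads, as none of Tomatoneg did, and Cdh2 was not tested.

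Vim, encoding the intermediate filament protein vimentin, showed the clearest difference of the set. It read 2416, 2546 and 2364 in CD24+Tomato+ replicates 1, 2 and 3 and 253, 409 and 244 in Tomatoneg, a mean of 2442 ± 93.9 against 302 ± 92.4 (SD, n = 3). The lowest CD24+Tomato+ library was thus far above the highest Tomatoneg library, with a difference of 3.05 ± 0.27 on the log2 scale (adjusted P = 0.00172) that passed under all 14 alternatives. In CD24negTomato+ cells Vim read 437, 773 and 539.7, against 219, 371 and 216 in Tomatoneg. These groups did not overlap either, but the log2 fold change of 1.12 ± 0.36 did not pass (adjusted P = 0.179, and 0.0485 with the replicate block). Whether the rise differed between the populations was not tested.

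Markers of tuft, enteroendocrine and lymphocyte types, whose sums differed between the sorted populations, were set beside Vim. Goblet and Paneth sums are given further below. Summed markers of tuft cells, chemosensory cells of the epithelium, ran from 13430 to 16630 in CD24+Tomato+ and from 1492 to 2227 in the Tomatoneg libraries of that table. They were lower in CD24negTomato+ cells, at 385 to 413 against 1303 to 2054 in the Tomatoneg libraries of the other table. All 6 tuft genes were above the limit in every library. Summed enteroendocrine markers (8 of 8 genes above the limit) ran from 148900 to 223800 in CD24+Tomato+, from 85080 to 154900 in CD24negTomato+ and from 2652 to 6562 in Tomatoneg cells. Summed lymphocyte markers were lower in both Tomato+ populations than in Tomatoneg cells, at 490 to 574 in CD24+Tomato+ and 633 to 1333 in CD24negTomato+ against 2801 to 11040. The part of any of these cell types in the level of Vim was not tested.

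Among the transcription factors that drive EMT, Snai1 and Snai2 were scarcely detected. Snai1, encoding the Snail repressor of Cdh1, read 2.83, 0 and 0 in CD24negTomato+, 1.65, 1.40 and 1.93 in CD24+Tomato+ and 0 in all Tomatoneg libraries, and no library exceeded 3 estimated reads. Snai2, encoding Slug, read 3.78, 2.97 and 0.916 and 5.74, 0 and 0 in the Tomato+ populations, and 0, 8.67 and 0 and 0, 8.85 and 0 in Tomatoneg in the 2 tables. The highest Snai2 value in each table was therefore a Tomatoneg library.

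Zeb1, a zinc-finger repressor of epithelial genes, read 22.6, 47.3 and 1.85 in CD24+Tomato+ and 0, 2.18 and 0 in Tomatoneg cells. Replicates 1 and 2 were above 3 reads and replicate 3 was not, and the log2 fold change of 3.33 ± 1.36 did not pass (adjusted P = 0.161). In CD24negTomato+ cells Zeb1 read 9.10, 15.9 and 0, again with replicate 3 lowest, against 0, 5.23 and 0. Its relative Zeb2 read 1.42, 17.8 and 0.566 in CD24negTomato+ and 2.66, 3.65 and 0.692 in CD24+Tomato+, and at most 2.37 in Tomatoneg cells. Twist1, a basic helix-loop-helix factor of mesoderm, was listed at 0 in all Tomatoneg libraries and read 0, 2.23 and 0.914 and 0.824, 5.60 and 6.75 in the Tomato+ populations. Snai1, Snai2, Zeb2 and Twist1 were below the mean needed for testing, and of these Snai1 and Twist1 did not overlap between CD24+Tomato+ and Tomatoneg libraries. Every Snai1 value and Twist1 in replicate 1 lay below 3 estimated reads, and the Tomatoneg libraries held fewer reads. Their lack of overlap is therefore not read as a difference.

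The ligand TGF-β1 (Tgfb1) went in opposite directions in the 2 comparisons. It read 43.1, 56.0 and 58.8 in CD24negTomato+ against 88.3, 73.2 and 107 in Tomatoneg cells, and 179, 146 and 145 in CD24+Tomato+ against 95.8, 75.5 and 114. All CD24negTomato+ libraries lay below and all CD24+Tomato+ libraries above the Tomatoneg libraries, yet neither log2 fold change passed (-0.75 ± 0.48, adjusted P = 0.459, and 0.73 ± 0.43, adjusted P = 0.325). Tgfbr1, encoding the type I receptor, had log2 fold changes of 1.37 and 1.32 that did not pass (adjusted P = 0.317 and 0.257), and its groups overlapped in both tables.

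Tgfbi, a secreted matrix protein first found as a TGF-β-induced gene, fell in CD24+Tomato+ cells. It read 1647, 528 and 549.6 in CD24+Tomato+ replicates 1, 2 and 3 and 8803, 3598 and 3855 in Tomatoneg, with no overlap and replicate 1 highest on both sides. The log2 fold change was -2.66 ± 0.53 (adjusted P = 0.0205), and the call was lost without CD24+Tomato+ replicate 2 or 3 (adjusted P = 0.103 and 0.0885). In CD24negTomato+ cells Tgfbi read 7605, 3071 and 4050, against 8211, 3534 and 3691. Here the groups overlapped and replicate 1 was again highest on both sides (log2 fold change -0.06 ± 0.44, 95% interval -1.08 to 0.96). Summed markers of enterocytes, the absorptive cells, moved with Tgfbi, at 82280, 28750 and 21760 in CD24+Tomato+ replicates 1, 2 and 3, 492300, 141400 and 136700 in Tomatoneg, and 450900, 200300 and 212500 in CD24negTomato+ cells (6 of 6 genes above the limit in each). Their part in the fall was not tested.

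The secreted TGF-β and YAP target Ccn1 and the matricellular protein thrombospondin 1 (Thbs1), an activator of latent TGF-β, were higher in CD24+Tomato+ cells without passing. Ccn1 read 297, 709 and 931 in CD24+Tomato+ against 49.2, 178 and 260 in Tomatoneg cells (log2 fold change 2.13 ± 0.71, adjusted P = 0.0943, and 0.0068 with the block). Thbs1 read 161, 233 and 168 against 5.88, 26.4 and 79.3 (2.91 ± 0.91, adjusted P = 0.08, 0.0465 with the block and 0.0486 without Tomatoneg replicate 1). Neither gene's groups overlapped in this table, and both overlapped in CD24negTomato+ cells, with log2 fold changes of 0.90 and 1.33 (adjusted P = 0.528 and 0.519). Ccn2, encoding connective tissue growth factor, was listed at 0 in all CD24negTomato+ libraries and at 0.819, 0 and 0 in CD24+Tomato+, and it exceeded 3 reads in Tomatoneg replicate 1 alone.

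Of 10 genes of interstitial matrix, the collagen I and III genes had lower values in CD24+Tomato+ than in Tomatoneg cells. Col1a1 read 0.672, 4.03 and 3.996 in CD24+Tomato+ against 5.90, 29.2 and 153 in Tomatoneg cells, Col1a2 8.96, 4.46 and 3.93 against 63.5, 19.9 and 20.8, and Col3a1 12.4, 15.9 and 0 against 55.8, 38.4 and 141. None of the 3 overlapped between groups, but log2 fold changes of -3.19, -2.26 and -3.49 did not pass (adjusted P = 0.159, 0.141 and 0.115). All 3 passed after quantile normalization, and Col1a1 also passed without Tomatoneg replicate 1 (adjusted P = 0.0285). Against CD24+Tomato+ cells, however, all 3 reached the mean for testing only through the Tomatoneg libraries and so had to differ. In CD24negTomato+ cells the same genes had log2 fold changes of -1.82, -1.70 and -1.13 (adjusted P = 0.559, 0.382 and 0.427), and the groups of Col1a2 alone did not overlap.

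Fibroblast markers were set beside these collagens. Their sum ran from 1801 to 2398 in CD24+Tomato+, from 2197 to 6741 in CD24negTomato+ and from 2774 to 9225 in Tomatoneg cells, with 4, 5 and 4 of 10 genes above the limit in all libraries of a population. One gene, Fbln1, gave most of it (1602 to 2260, 1931 to 6453 and 2475 to 8634). The defining marker Pdgfra was at 0 in all Tomato+ libraries and read 55.5, 1.83 and 0 in Tomatoneg replicates 1, 2 and 3 of the CD24negTomato+ table. Log2 fold changes in CD24negTomato+ and CD24+Tomato+ cells were 0.73 and 0.70 for Pdgfrb and 1.57 and 1.48 for Col6a3. They were -1.28 and -2.45 for Thy1, -1.24 and -2.37 for Col6a2 and -0.36 and -1.14 for Fbln1. None of these passed, and the list medians were -0.361 and -1.755. With the block, Thy1 and Fbln1 passed as lower in CD24+Tomato+ cells (adjusted P = 0.0157 and 0.0462). The part of stromal RNA in the collagen values was not tested.

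Fstl1, encoding the secreted glycoprotein follistatin-like 1, was the interstitial matrix gene that rose. It read 119.5, 73.2 and 133 in CD24+Tomato+ against 5.99, 15.6 and 18.0 in Tomatoneg cells, and 91.9, 108 and 62.4 in CD24negTomato+ against 3.86, 10.6 and 11.9. The groups were well apart in both tables. In the CD24negTomato+ table, however, Fstl1 reached the mean for testing only through the CD24negTomato+ libraries and so had to differ. The log2 fold change of 3.03 ± 0.70 passed in CD24+Tomato+ cells (adjusted P = 0.0325), and that of 3.26 ± 0.72 in CD24negTomato+ cells did not (adjusted P = 0.0779, and 0.0282 without Tomatoneg replicate 1). The first call was lost without any 1 CD24+Tomato+ library (adjusted P = 0.143, 0.142 and 0.142). It was also lost with a pseudocount of 0.1 (0.0526), no filter (0.0597), a mean of at least 50 (0.054), quantile normalization (0.0715) and replicates 2 and 3 alone (0.0546).

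Dcn, encoding the collagen-binding proteoglycan decorin, read 5.39, 15.7 and 38.5 in CD24negTomato+ against 1.26, 17.2 and 20.5 in Tomatoneg cells, and 0.242, 3.50 and 29.7 in CD24+Tomato+ against 1.21, 15.7 and 19.2. Its groups overlapped in both tables, and log2 fold changes of 0.75 ± 1.25 and -0.71 ± 1.51 did not pass (adjusted P = 0.79 and 0.797). Sparc, a collagen chaperone of matrix assembly, ran from 5.95 to 22.6 over all libraries with log2 fold changes of 0.55 and 0.09. Fibronectin (Fn1), the fibrillar collagen Col5a1, the proteoglycan biglycan (Bgn) and the collagen cross-linker Lox were below the mean needed for testing. Fn1 read 14.1, 13.7 and 12.0 in CD24+Tomato+ cells, each above the 0.944, 9.09 and 4.63 of Tomatoneg, and the other 3 stayed at or below 12.1 in every library.

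Lamb1, encoding the laminin β1 chain, rose in CD24+Tomato+ cells, where it read 409, 609 and 237 in replicates 1, 2 and 3 against 59.3, 127 and 30.9 in Tomatoneg (log2 fold change 2.64 ± 0.63, adjusted P = 0.0361). In CD24negTomato+ cells it read 23.8, 29.4 and 99.4 against 45.3, 102 and 24.2, and the groups overlapped (-0.22 ± 0.82, adjusted P = 0.912). Every CD24+Tomato+ library thus lay above every Tomatoneg library, and the CD24negTomato+ libraries did not stand apart. Lamc1, encoding the laminin γ1 chain that pairs with β1, read 832, 709.5 and 560.3 against 404, 228 and 269 (1.24 ± 0.33, adjusted P = 0.0482), again without overlap. In CD24negTomato+ cells it read 299, 453 and 438 against 339, 202 and 231, with an overlap and no call (0.63 ± 0.35, adjusted P = 0.393).

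Lama3, encoding an α chain of epithelial laminin, read 40.5, 21.1 and 1.22 in CD24+Tomato+ against 191, 62.8 and 14.1 in Tomatoneg cells, and 195, 126 and 132 in CD24negTomato+ against 184, 63.7 and 14.0. Replicate 3 was lowest in Tomatoneg and in CD24+Tomato+ cells, the groups overlapped, and log2 fold changes of -2.17 ± 1.38 and 1.40 ± 0.88 did not pass (adjusted P = 0.359 and 0.451). The collagen IV genes Col4a1 and Col4a2, which lie head to head and overlap at their starts, read at most 17.9 in any library and were not tested. Both laminin calls were fragile, with adjusted P of 0.0834 to 0.191 (Lamb1) and 0.111 to 0.215 (Lamc1) without any 1 CD24+Tomato+ library. Leaving out Tomatoneg replicate 3 also ended both (0.062 and 0.0872), and leaving out replicate 2 ended that of Lamc1 (0.101). Equal library totals ended both (adjusted P = 0.0511 and 0.0666), and replicates 2 and 3 alone ended that of Lamb1 (0.0962). That of Lamc1 was also lost with a pseudocount of 0.1 (0.0578), no filter (0.0546) and quantile normalization (0.0549).

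The α chain Itgav and the β chains Itgb1 and Itgb5, integrin subunits that bind matrix, were detected in every library. Itgb5, which pairs with αv to bind vitronectin, fell in CD24+Tomato+ cells. It read 232, 179 and 280.4 in CD24+Tomato+ replicates 1, 2 and 3 against 845, 599 and 706 in Tomatoneg, so the highest value of the first was under the lowest of the second. The log2 fold change was -1.64 ± 0.31 (adjusted P = 0.0177), and adjusted P was 0.0594 to 0.109 without any 1 CD24+Tomato+ library. In CD24negTomato+ cells Itgb5 read 622, 479 and 451 against 754, 562 and 646, with an overlap (-0.34 ± 0.27, adjusted P = 0.541). Itgb1, the common β chain of collagen and laminin receptors, had log2 fold changes of 0.54 and 0.08, and Itgav of 0.88 and 0.71, and neither passed in either table.

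**Figure D3:**
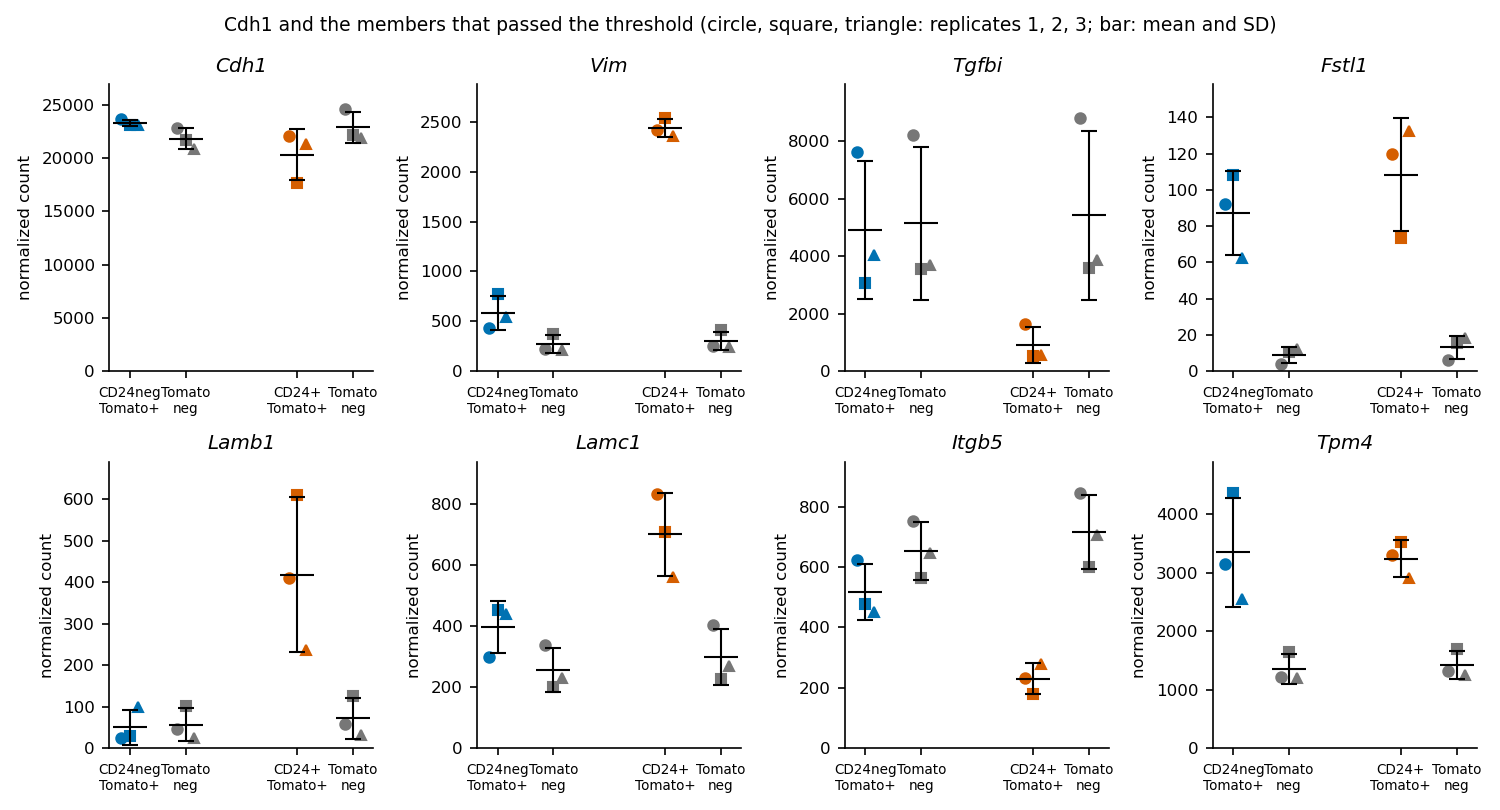
Normalized counts of Cdh1 and of the 7 members past the threshold in CD24+Tomato+ cells, in each library of both tables, with mean and SD (n = 3). CD24+Tomato+ libraries lie above their Tomatoneg libraries for Vim (2364 or more against 409 or less), Fstl1, Lamb1, Lamc1 and Tpm4 and below them for Tgfbi and Itgb5.

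Of the protease genes, Plaur, encoding the urokinase receptor, was higher in both populations without a call. It read 547, 729 and 269.6 in CD24negTomato+ against 0, 72.5 and 49.7 in Tomatoneg cells, and 254, 213 and 174 in CD24+Tomato+ against 0, 72.9 and 51.1. Tomatoneg replicate 1 was listed at 0 and stood far from its fellows, and the log2 fold changes of 4.94 ± 1.53 and 3.76 ± 1.55 had adjusted P of 0.16 and 0.166. Without that library they were 2.96 and 1.77, and both passed (adjusted P = 0.0218 and 0.0225). Timp3, a matrix-bound inhibitor of metalloproteinases, had log2 fold changes of 0.96 and 1.26 (adjusted P = 0.689 and 0.492) that turned negative after quantile normalization. The gelatinase Mmp2 and the inhibitor Timp1 stayed at or below 5.80 in every library and were not tested.

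The contractile genes split between tropomyosins and smooth muscle products. Tpm4, encoding a tropomyosin of non-muscle cells that coats actin filaments, read 3291, 3521 and 2900 in CD24+Tomato+ replicates 1, 2 and 3 against 1316, 1689 and 1259 in Tomatoneg, and 3139, 4365 and 2541 in CD24negTomato+ against 1215, 1642 and 1193. All Tomato+ libraries lay above all Tomatoneg libraries. The log2 fold change was 1.20 ± 0.21 (adjusted P = 0.0137) in CD24+Tomato+ and 1.29 ± 0.27 (adjusted P = 0.0699, and 0.0125 with the block) in CD24negTomato+ cells. The first call was lost without any 1 CD24+Tomato+ library (adjusted P = 0.0556 to 0.103).

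Tpm1, the most widely expressed tropomyosin gene, read 7154, 8601 and 6734 in CD24negTomato+ against 6535, 6199 and 6324 in Tomatoneg cells, and 5390, 5744 and 5764 in CD24+Tomato+ against 6987, 6297 and 6586. The first population lay wholly above and the second wholly below Tomatoneg, by log2 fold changes of 0.23 ± 0.20 and -0.23 ± 0.18 that did not pass (adjusted P = 0.589 and 0.455). The second turned to 0.04 after quantile normalization. Tpm2 had log2 fold changes of -0.85 and -1.08 and the actin-binding caldesmon gene Cald1 of -0.26 and -0.60, with overlapping groups. The tropomyosin genes are paralogs, and reads from sequence they share were divided among them by the authors' estimated counting.

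The smooth muscle products Acta2, Tagln and Myl9 were near absent. Acta2, encoding smooth muscle actin, exceeded 10 in Tomatoneg replicate 1 alone, at 22.8 and 24.4 in the 2 tables, and Tagln and Myl9 were listed at 0 in all Tomatoneg libraries and read at most 7.08 in Tomato+ libraries. Tagln read 7.08, 3.89 and 2.55 in CD24+Tomato+ cells and passed there as higher when no filter on low values was set. The value of replicate 3 lay below 3 estimated reads, and the Tomatoneg libraries held fewer reads. That call is therefore not read as a difference. Caveolin 1 (Cav1), the coat protein of caveolae, reached 29.2 in CD24negTomato+ replicate 2 and 8.38 or less in every other library. The smooth muscle and pericyte markers gave sums of 3105 to 6503 in Tomatoneg, 3922 to 5485 in CD24negTomato+ and 1639 to 2403 in CD24+Tomato+ cells, but 2 of 8 genes (Mylk and Smtn, which epithelial cells also express) made up nearly all of it. The defining markers Actg2, Des, Myh11 and Cnn1 read at most 5.87 in any library.

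Lgals1, encoding the galectin of mesenchyme and activated lymphocytes, read 13.0, 18.3 and 22.1 in CD24negTomato+ against 11.0, 116 and 132 in Tomatoneg cells, and 11.4, 31.3 and 18.5 in CD24+Tomato+ against 11.9, 119 and 139. Only Tomatoneg replicates 2 and 3 were high. The log2 fold changes of -1.64 ± 1.02 and -1.60 ± 1.05 did not pass (adjusted P = 0.449 and 0.378), and both passed without Tomatoneg replicate 1 (adjusted P = 0.0286 and 0.0225). Lymphocyte markers, with 9 of 9 genes above the limit, summed to 2801, 10820 and 7895 in Tomatoneg replicates 1, 2 and 3 of the CD24negTomato+ table and were thus lowest in the same replicate, and their part in Lgals1 was not tested.

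The DNA damage and stress response genes Gadd45a and Gadd45b showed no call in either table. Gadd45b read 829, 836 and 746 in CD24negTomato+ against 168, 438 and 418 in Tomatoneg cells, and 598, 574 and 679 in CD24+Tomato+ against 185, 459 and 449. It did not overlap in either table but did not pass (log2 fold change 1.35 ± 0.41, adjusted P = 0.15, and 0.87 ± 0.40, adjusted P = 0.212). Gadd45a read 1616, 1360 and 1152 in CD24negTomato+ against 1665, 743 and 534, and 1073, 917 and 701 in CD24+Tomato+ against 1772, 751 and 554. Tomatoneg replicate 1 was the highest of its group, the groups overlapped, and the log2 fold changes were 0.65 ± 0.42 (adjusted P = 0.464) and -0.03 ± 0.44 (adjusted P = 0.974).

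The 7 members past the threshold lie on different chromosomes or far apart in GRCm38 (GENCODE M21). Lamc1 spans chr1:153218922-153332786, Vim chr2:13573927-13582826, Tpm4 chr8:72134975-72153142 and Lamb1 chr12:31265234-31329644. Tgfbi spans chr13:56609523-56639562, Itgb5 chr16:33829665-33949338 and Fstl1 chr16:37776873-37836514. The values are sums over the transcripts of a whole gene and do not resolve exons. The stretch just upstream of the start is shown for 1 member that rose and both that fell in CD24+Tomato+ cells, so that their starts can be compared. The sequences are RefSeq's on GRCm38.p6, plus strand, 5′ to 3′, and end at the base before the gene. Capitals mark the E-box CACCTG, the type of site bound by Snail and Zeb proteins, and the GC box GGGCGG, both searched on either strand.
Lamb1, chr12:31265043-31265233: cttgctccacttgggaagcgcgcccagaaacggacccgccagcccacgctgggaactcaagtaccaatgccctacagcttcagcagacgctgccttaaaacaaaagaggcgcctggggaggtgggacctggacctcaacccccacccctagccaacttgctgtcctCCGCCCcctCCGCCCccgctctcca
Tgfbi, chr13:56609336-56609522: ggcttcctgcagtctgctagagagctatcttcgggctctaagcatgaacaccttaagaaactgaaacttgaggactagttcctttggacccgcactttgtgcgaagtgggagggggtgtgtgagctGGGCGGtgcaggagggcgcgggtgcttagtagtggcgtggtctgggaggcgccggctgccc
Itgb5, chr16:33829415-33829664: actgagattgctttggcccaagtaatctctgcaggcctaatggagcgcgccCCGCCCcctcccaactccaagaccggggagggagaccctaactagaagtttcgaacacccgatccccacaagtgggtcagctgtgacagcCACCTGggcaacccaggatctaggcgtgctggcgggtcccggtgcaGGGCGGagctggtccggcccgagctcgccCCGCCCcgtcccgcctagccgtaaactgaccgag
Lamb1 held 2 GC boxes, Tgfbi 1 and Itgb5 3, and Itgb5 alone held an E-box, of which there was 1. Promoters were found for 32 of the 47 members. In 250 bases upstream of the start, 4 of these 32 (Cav1, Itgb5, Snai1 and Timp3) held the E-box and 24 the GC box, against 17.2% and 32.7% of all 32851 promoters. A match describes these letters only and is not evidence that a factor binds there.

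Other genes of the same pathways, 144 in 7 lists with no member among them, were counted for context. In CD24+Tomato+ cells 13 of 107 tested genes rose (12.1%, beside 8.02% of all genes) and 7 fell (6.54%, beside 4.89%). At an unadjusted P under 0.05, 11 of 102 tested genes were higher and 4 lower in CD24negTomato+ cells, beside 1377 and 915 of 13420 genes. After adjustment 2 of the 102 rose there, 1.96% beside 0.999%, and 0 fell. Those 2 were Mmp15, a membrane-bound metalloproteinase (log2 fold change 1.93 ± 0.25, adjusted P = 0.0164), and the tight junction claudin Cldn4 (3.19 ± 0.44, adjusted P = 0.0197). They are 1 of 9 tested protease genes and 1 of 24 genes of epithelial junctions, and the other 5 lists gave no call.

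At an unadjusted P under 0.05, 1598 of 13874 genes were lower in CD24+Tomato+ cells. There, the protease list had 3 of 9 genes higher and 0 lower (0 lower also at that unadjusted P). They were the Paneth cell matrilysin Mmp7 (log2 fold change 3.07 ± 0.62, adjusted P = 0.0211), Mmp15 (2.31 ± 0.20, adjusted P = 0.00169) and Mmp14, which activates Mmp2 at the cell surface (1.76 ± 0.28, adjusted P = 0.0102). Mmp7 is also one of the 6 Paneth markers, whose sum was 461600 to 1890000 in CD24+Tomato+ against 37530 to 148400 in Tomatoneg cells. Of 14 tested interstitial matrix genes, 2 rose and 0 fell (1 lower at an unadjusted P under 0.05). These were the proteoglycan versican, Vcan, which read 209, 197 and 155 against 3.56, 5.62 and 0 (adjusted P = 0.00974), and the collagen prolyl hydroxylase P4ha1 (1.92 ± 0.40, adjusted P = 0.0238). Vcan reached the mean for testing only through the CD24+Tomato+ libraries and so had to differ.

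Of 17 integrin and adhesion genes, 2 rose and 3 fell in CD24+Tomato+ cells. The tenascin-binding integrin chain Itga9 (5.25 ± 1.29, adjusted P = 0.0391) and the hyaluronan receptor Cd44 (2.07 ± 0.51, adjusted P = 0.0385) rose, and among those that fell were the laminin-binding chain Itga3 (-1.42 ± 0.38, adjusted P = 0.0497) and talin, Tln1, which links integrins to actin (-1.37 ± 0.29, adjusted P = 0.0234). Of 18 actin and contractile genes, 2 rose and 4 fell. Cav2, the partner of Cav1, read 50.03, 19.4 and 12.4 and was listed at 0 in all Tomatoneg libraries (adjusted P = 0.028, and 0.0503 with the block), so that it reached the mean for testing only through CD24+Tomato+ libraries and had to differ, whereas the actin cross-linker Actn4 (-1.47 ± 0.27, adjusted P = 0.0164), the non-muscle myosin Myh14 (-1.42 ± 0.33, adjusted P = 0.0338) and zyxin, Zyx, of focal adhesions (-1.29 ± 0.33, adjusted P = 0.0434) fell. Of 17 TGF-β pathway genes, the pseudoreceptor Bambi, which dampens TGF-β signals, rose (3.40 ± 0.35, adjusted P = 0.00318), and 0 fell (2 lower at an unadjusted P under 0.05).

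Epithelial genes stayed abundant. Of 24 genes of epithelial junctions and state, 2 rose in CD24+Tomato+ cells, the claudin Cldn4 (3.50 ± 0.41, adjusted P = 0.00525) and the keratin Krt18 (2.14 ± 0.31, adjusted P = 0.009), and 0 fell. At an unadjusted P under 0.05, 6 of the 24 were lower, beside 1598 of 13874 genes. With the replicate block 2 of the 24 rose and 7 fell, beside 10.8% and 9.95% of all genes. The 8 epithelial markers, among them Epcam, were all above the limit in every library and gave sums of 295300 to 433900 in Tomatoneg cells, 342600 to 399500 in CD24negTomato+ cells and 246300 to 284100 in CD24+Tomato+ cells. Every CD24+Tomato+ sum lay below every Tomatoneg sum of its table (302600 to 433900). With the block 3 of these 8 markers were lower in CD24+Tomato+ cells (Vil1, Krt19 and Krt20) and 1 was higher (Krt18).

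**Figure D4:**
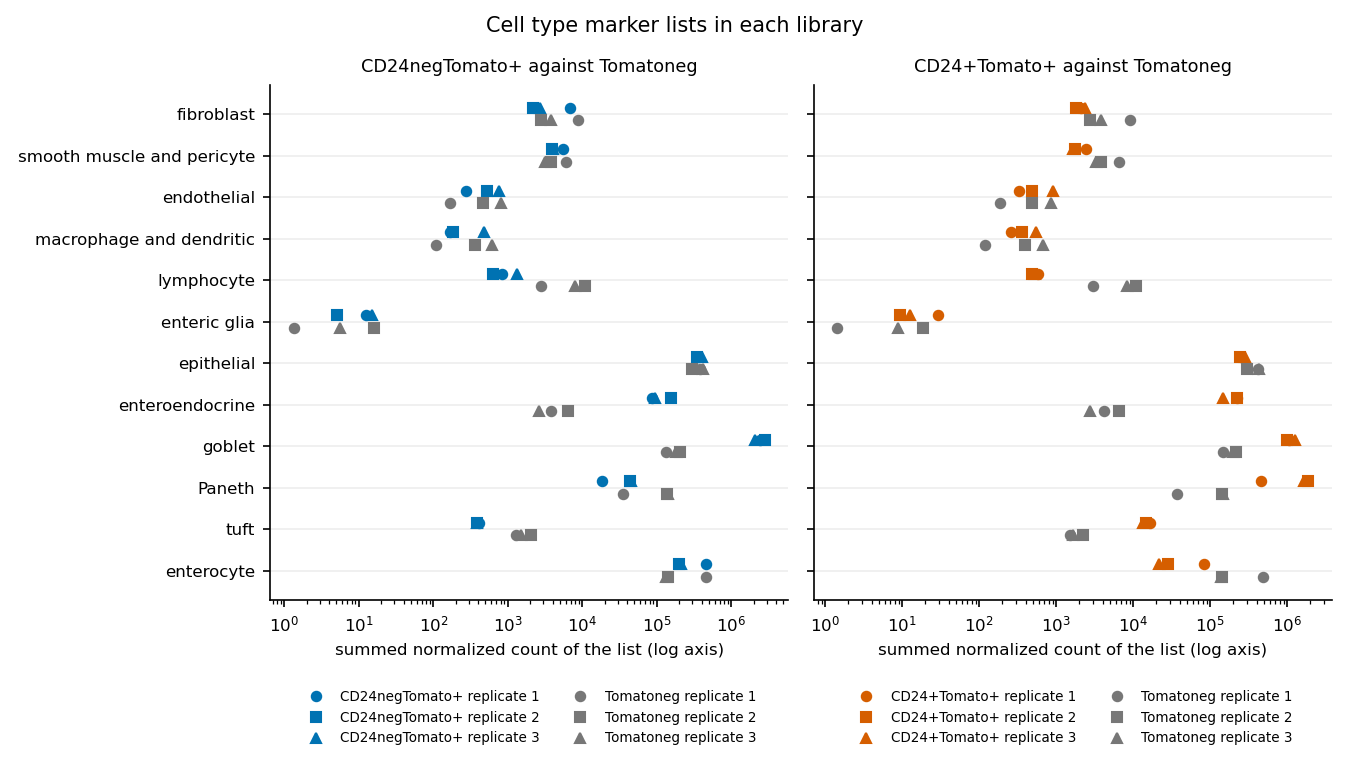
Summed normalized count (log axis) of 12 lists of cell type markers in each library, in the table with CD24negTomato+ cells (left) and with CD24+Tomato+ cells (right). Tuft markers separate CD24+Tomato+ (13430 to 16630) from Tomatoneg cells (1492 to 2227), and lymphocyte markers are lower in Tomato+ libraries (490 to 1333) than in Tomatoneg libraries (2801 to 11040).

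The remaining marker lists complete the picture of what the sorted cells held. Endothelial markers summed to 273 to 909 in Tomato+ and 169 to 864 in Tomatoneg libraries, with Cdh5 and Emcn at 0 in all Tomato+ libraries, and macrophage and dendritic markers to 166 to 541 and 107 to 676. Emcn was also at 0 in all Tomatoneg libraries, as Cdh5 was in 2 of 3. Another endothelial marker, Plvap, read 64.2, 56.9 and 85.2 in CD24+Tomato+ against 0, 6.67 and 10.1 in Tomatoneg cells (log2 fold change 3.97 ± 1.07, adjusted P = 0.0518, and 0.0441 with the block), and the median log2 fold change of the 3 endothelial markers tested there was 2.53. Plvap reached the mean for testing only through the CD24+Tomato+ libraries and so had to differ. Enteric glia markers summed to at most 29.3 in any library. Goblet markers, from mucus-secreting cells, gave 132600 to 216400 in Tomatoneg cells, 2104000 to 2805000 in CD24negTomato+ cells and 989800 to 1251000 in CD24+Tomato+ cells, and Paneth markers to 18130 to 45000 in CD24negTomato+ cells, with all genes of both lists above the limit in every library. How far these cell types contribute to any member was not tested.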

How the data were processed

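Poly-A RNA of 9 libraries was sequenced by the authors (bcl2fastq 2.19), and transcripts were quantified with kallisto 0.44.0 on GRCm38, with sleuth and DESeq2 also named in the submitters' processing notes. The deposited values are a normalized signal per gene, not whole counts, in 2 tables of 6 libraries. Tomatoneg libraries are in both, and for 12078 genes the ratio between the tables, divided by the library's median ratio (1.078, 1.024 and 1.05 in replicates 1, 2 and 3), is the same in all 3 libraries (largest relative spread 2.8e-09) and ranges from 0.574 to 1.78 between genes, so tests were run within a table. The step that makes this factor is not given in the sources used here.

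Tests used R 4.3.3 and its limma package, version 3.58.1, with a mean-variance trend, on log2(normalized count + 1), which understates changes of low genes. Genes needed a mean of at least 10 over 6 libraries, two-sided P values had Benjamini-Hochberg adjustment over all genes tested, and the threshold was 0.05. The value of 1 read was taken as the most common low value of a library. It was not the unit of every gene, since 30.9% to 56.1% of low values were within 0.02 reads of a whole multiple, so depths and limits of detection are estimates. Same-numbered Tomato+ and Tomatoneg libraries deviated together from their group means (correlations of 0.302, 0.291 and 0.342 for CD24negTomato+ and 0.283, 0.18 and 0.375 for CD24+Tomato+, across genes), so the replicate numbers in the labels were treated as pairs in an alternative fit. Whether same-numbered libraries share mice is not stated, and P values measure the spread between these samples.

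Alternatives were pseudocounts of 0.1 and 10, no filter, a mean of at least 50, equal library totals, quantile normalization, the replicate block, replicates 2 and 3 alone, and each library left out. Every member was named. Values per library were given for members past the threshold in either comparison, for those whose direction differed between tables and for the defining EMT genes, with others added after their values were seen. From each pathway list, up to 4 genes with the largest changes past the threshold were named. The count of calls among further basement membrane genes in CD24+Tomato+ cells is not reported here. The members and all lists were chosen with earlier results of these data known. The tests were tested on simulated data. Summaries used Python 3.11.15, numpy 2.4.6 and pandas 2.3.3, and figures matplotlib 3.10.9.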

Additional observations from a re-analysis of the deposited data

Results flagged for a closer look

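Among the members, 2 moved one way in every library of one Tomato+ population and the other way in every library of the other. Tgfb1 had a log2 fold change of 0.73 in CD24+Tomato+ and of -0.75 in CD24negTomato+ cells against the same Tomatoneg libraries, and Tpm1 one of -0.23 and 0.23. The difference between the comparisons was not tested, because they share their controls and the tables were scaled separately, and none of the 4 values passed the test on its own. The share of all genes with such an opposite pattern was not counted, so the number 2 has no background beside it. Groups did not overlap for 14.7% of all tested genes higher and 10.6% lower in CD24negTomato+ cells, and for 21.6% and 14.4% in CD24+Tomato+ cells. Under the alternatives, the CD24+Tomato+ value of Tgfb1 fell to as little as 0.059 and that of Tpm1 turned to 0.041.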

How the results depend on the processing

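Under the alternatives, 18 member values for CD24negTomato+ and 13 for CD24+Tomato+ cells changed sign and 357 and 335 kept both sign and side of the threshold. In CD24+Tomato+ cells 31 values of called members no longer passed and 14 values of other members did, and in CD24negTomato+ cells 7 did. Those that changed sign did not pass the test, and the rise of Vim in CD24+Tomato+ cells passed under every alternative. The cause of the changes was not tested.

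For CD24negTomato+ cells, a pseudocount of 0.1 gave 19 genes lower in all, a pseudocount of 10 gave 2 members higher (Fstl1 and Tpm4) and 314 genes higher and 101 lower, and no filter gave 28 lower. Equal library totals moved the median log2 fold change of all genes from 0.08 to -0.12, split the calls into 98 higher and 60 lower in place of 134 and 43, and turned Cdh1 to -0.10. Quantile normalization (median -0.05) gave 304 higher and 190 lower and turned Sparc to -0.48, Dcn to -0.50 and Timp3 to -0.39. The replicate block, which pairs same-numbered libraries, gave 2 members higher (Tpm4 and Vim) and 582 genes higher and 397 lower. Replicates 2 and 3 alone gave 68 higher and turned Lamb1 to 0.12, Tpm2 to 0.19 and Cald1 to 0.40.

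For CD24+Tomato+ cells, a pseudocount of 0.1 gave 3 members and 731 genes higher, equal library totals 3 members higher (Fstl1, Tpm4 and Vim) and no filter 4 (Lamb1, Tagln, Tpm4 and Vim). Quantile normalization (median -0.02 in place of 0.16) gave 3 members higher and 6 lower, adding Col1a1, Col1a2, Col3a1 and Lgals1, and 991 genes higher and 1036 lower in place of 1113 and 678, and turned Sparc to -1.52, Timp3 to -0.76 and Tpm1 to 0.041. The replicate block gave 1381 genes lower and changed no call of a member other than those of Ccn1 and Thbs1. Replicates 2 and 3 alone turned Sparc to -0.29 and Gadd45a to 0.32.

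With each library left out in turn CD24negTomato+ cells had 0 to 2 members higher, 0 to 1 lower, and 17 to 617 genes higher and 1 to 442 lower, the highest counts without Tomatoneg replicate 1 and the lowest of all genes without CD24negTomato+ replicate 2. Log2 fold changes ran from -0.85 to 0.31 for Lamb1, -0.43 to 0.34 for Tgfbi, -0.99 to 0.22 for Cald1, -0.29 to 1.42 for Dcn, -1.87 to 0.05 for Tpm2 and -0.019 to 1.40 for Itgav. CD24+Tomato+ cells had 1 to 7 members higher, 0 to 4 lower, and 127 to 1620 genes higher and 41 to 858 lower, the highest counts without Tomatoneg replicate 1 and the lowest of all genes without CD24+Tomato+ replicate 2. Log2 fold changes ran from -1.73 to 0.37 for Dcn, -0.30 to 0.39 for Itgb1, -0.35 to 0.42 for Sparc, -0.38 to 0.46 for Gadd45a and -0.19 to 1.25 for Itgav.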

Other observations

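With the replicate block, further genes of the pathway lists passed that did not pass without it. In CD24negTomato+ cells 7 of 102 tested genes were higher and 3 lower (6.86% and 2.94%), beside 4.34% and 2.96% of all genes. The higher ones added the TGF-β family targets Id2 (log2 fold change 1.36, blocked adjusted P = 0.0255) and Id3 (0.65, 0.0477), the collagen-binding integrin chain Itga2 (1.27, 0.0257) and the keratins Krt18 (1.31, 0.0219) and Krt20 (0.99, 0.0249). The lower ones were the basement membrane proteoglycan perlecan, Hspg2 (-1.47, 0.0415), Tln1 (-1.19, 0.0447) and the actin-binding Cnn3 (-1.45, 0.02).

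In CD24+Tomato+ cells 15 of 107 were higher and 21 lower (14.0% and 19.6%), beside 10.8% and 9.95%. Among those added, the laminin α5 chain Lama5 read 501, 863 and 1480 in CD24+Tomato+ replicates 1, 2 and 3 against 19.7, 330 and 63.3 in Tomatoneg (log2 fold change 3.50, adjusted P = 0.0549, blocked 0.0134). The inhibitory Smad7 (-1.19, blocked adjusted P = 0.0482) and the common mediator Smad4 (-0.73, 0.036) of TGF-β signalling were lower. These genes were picked after their values were seen.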
